A study of Mus musculus with 8 samples.

Results

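The genes examined were 7 cathepsins (*Ctsb*, *Ctsc*, *Ctsd*, *Ctsl*, *Ctss*, *Ctsw* and *Ctsz*), the cathepsin inhibitor cystatin F (*Cst7*) and the granule proteoglycan serglycin (*Srgn*). They were chosen by symbol from the count tables of CD8+ T cells, and these 9 genes are part of 48321 symbols listed there. After a filter on low counts 12597 genes were tested, all 9 among them, so no gene of the group was lost to the filter.

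RNA was sequenced from splenic CD8+ T cells of C57BL/6 mice, the cytotoxic lineage of T lymphocytes, in 8 libraries. The series names *Satb1* F/F; *E8I-cre* animals, in which a recombinase driven by an enhancer active in the mature CD8 lineage acts on floxed *Satb1*, the gene of a chromatin organising protein of T cells. The 4 groups, of 2 libraries each, were WT and KO at day 0, before culture, and WT and KO after 5 days in culture. Whether WT animals carried the floxed alleles or the cre, how many animals stood behind a library, and their sex and age are not stated in the labels. For the mice of the study as a whole, its methods give an average age range in weeks and mixed sexes, unless specified otherwise. Of the day 5 cells the labels say only that they were cultured. The methods of the study describe activation with anti-CD3e and anti-CD28 followed by IL-2, and a longer stimulation for exhaustion, without saying which was used here. No source says that the numbered libraries came from separate animals, so p-values measure the spread between these libraries, which may be technical.

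Cathepsins are proteases of lysosomes and of the secretory granules that lymphocytes derive from them. In cytotoxic T cells, granzymes are made as inactive precursors, and cathepsin C removes a dipeptide from their ends to activate them. Cystatin F restrains cathepsin C and related enzymes inside the same compartments, and serglycin carries long acidic sugar chains on which granzymes and perforin are stored.

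Sequence windows around the start sites are shown because 4 of the genes fell and 3 rose over culture in at least 1 genotype. RefSeq windows (GRCm38.p6, from 250 bases before to 50 bases after a start) were at hand for 7 of the 9 genes, in 8 windows. *Ctsd* (chr7:142387778-142388077, minus strand), *Ctsl* (chr13:64370471-64370770, minus strand) and *Ctss* (chr3:95526536-95526835, plus strand) are printed because they were lower at day 5 and hold a match to a searched motif, and *Cst7* (chr2:150570165-150570464, plus strand) because it had the largest rise. Capitals mark motif matches.
Ctsd: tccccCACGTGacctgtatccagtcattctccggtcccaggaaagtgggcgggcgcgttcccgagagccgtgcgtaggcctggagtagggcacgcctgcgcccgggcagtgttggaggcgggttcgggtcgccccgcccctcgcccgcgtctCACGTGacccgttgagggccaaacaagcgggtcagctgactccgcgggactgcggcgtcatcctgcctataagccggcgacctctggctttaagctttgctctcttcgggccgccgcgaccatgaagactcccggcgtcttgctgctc
Ctsl: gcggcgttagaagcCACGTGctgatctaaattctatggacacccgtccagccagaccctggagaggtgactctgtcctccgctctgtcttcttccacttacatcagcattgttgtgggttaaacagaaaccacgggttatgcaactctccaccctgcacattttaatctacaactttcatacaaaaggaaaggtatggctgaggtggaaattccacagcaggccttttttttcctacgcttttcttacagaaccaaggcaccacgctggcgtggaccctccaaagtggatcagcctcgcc
Ctss: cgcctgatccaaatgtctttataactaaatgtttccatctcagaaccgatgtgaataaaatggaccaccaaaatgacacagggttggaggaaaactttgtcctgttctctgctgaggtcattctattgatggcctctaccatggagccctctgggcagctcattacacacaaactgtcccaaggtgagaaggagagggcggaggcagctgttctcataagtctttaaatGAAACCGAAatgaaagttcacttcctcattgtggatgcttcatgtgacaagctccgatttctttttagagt
Cst7: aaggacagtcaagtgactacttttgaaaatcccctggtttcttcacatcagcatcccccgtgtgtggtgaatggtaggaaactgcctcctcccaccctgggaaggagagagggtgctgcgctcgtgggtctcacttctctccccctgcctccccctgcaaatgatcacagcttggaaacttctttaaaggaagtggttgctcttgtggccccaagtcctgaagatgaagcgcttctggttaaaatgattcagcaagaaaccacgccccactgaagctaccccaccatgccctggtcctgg
The 4 motifs below were searched on both strands after the windows had been seen. The palindrome CACGTG, an E-box, was found in *Ctsd* at 2 places and in *Ctsl* at 1, and it occurred in 7.15% of 32851 RefSeq promoter windows of the same length. GAAANNGAA, the core bound by interferon regulatory factors, was found in *Ctss* and in 1 of the 2 *Srgn* windows, against 8.56% of all windows. TGTGGTT, bound by Runx proteins, was found in that same *Srgn* window, against 5.27%, and TGACTCA, bound by AP-1, in no window of these genes, against 5.20%. The matches did not overlap. *Ctsc*, *Ctsz* and *Cst7* held none of these letters in the windows read. The matches describe the sequence and were not tested as binding sites.

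Gene totals ranged from 4170126 to 11117971 counts per library, the deepest being KO replicate 1 at day 0, and 21.2% to 24.5% of the records of a library were assigned to genes. The targeted gene was read first. *Satb1* had 97.8 and 91.6 CPM (counts scaled to a common library size with TMM factors) in WT at day 0, 144 and 125 in KO at day 0, 96.5 and 116 in WT at day 5 and 56.5 and 62.3 in KO at day 5. Its gene-level count was thus higher, not lower, in both KO libraries at day 0 (log2 fold change 0.51, standard error or SE 0.15, false discovery rate or FDR 0.125), and lower in both at day 5 (-0.84, SE 0.15, FDR 0.0162), by the quasi-likelihood test of edgeR with Benjamini-Hochberg adjustment over all tested genes. Without WT replicate 2, KO replicate 1 or KO replicate 2 of day 5, the day 5 call of *Satb1* was lost (FDR up to 0.174, edgeR). The day 0 difference was not called. Counts per exon were not at hand, so loss of the floxed exons could not be checked from these gene-level counts. The libraries are therefore named by their label, as KO-labelled, and directions by genotype rest on that label. The 5 CD8 T-cell markers (*Cd3e*, *Cd3g*, *Cd8a*, *Cd8b1*, *Trac*) summed to 10700 to 11400 CPM at day 0, 6360 to 6470 in WT at day 5 and 7470 to 7540 in KO-labelled libraries at day 5. The 3 CD4 T-cell markers summed to 1.36 to 3.58 CPM in WT and 6.06 to 6.26 CPM in KO-labelled libraries at day 0, with *Cd40lg* at 1.61 and 1.13 CPM against 5.66 and 3.85 CPM (log2 1.79, FDR 0.134, edgeR), and to 2.65 to 3.22 CPM at day 5, with *Cd4* under 1 CPM in every library. Where a library is left out below, its group keeps 1 library, which the fit assumes to vary like the other groups.

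Over culture, genes of the group changed in both directions, in WT at about the rate of all tested genes. In WT, 2 were higher at day 5 than at day 0 and 3 were lower, beside 48.3% of all tested genes called. In KO-labelled libraries, 3 were higher and 4 lower, beside 50.2% of all tested genes. The share of the 9 was 55.6% and 77.8%. The median log2 fold change of the 9 was -0.27 in WT and 0.14 in KO-labelled libraries, and over all tested genes it was -0.04 and -0.05. Between the genotypes, 0 of the 9 were called at day 0 (by edgeR and by DESeq2), beside 1.80% of all tested genes, and 1 of the 9 was under an unadjusted p of 0.05, beside 13.8%. At day 5, 1 of the 9 was called, beside 1.63%, and 3 were under an unadjusted p of 0.05 (*Ctsb*, *Ctsd* and *Srgn*), beside 14.1%. The summed level of the 9 genes ranged from 2575 to 3063 CPM over all libraries.

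**Figure D1:**
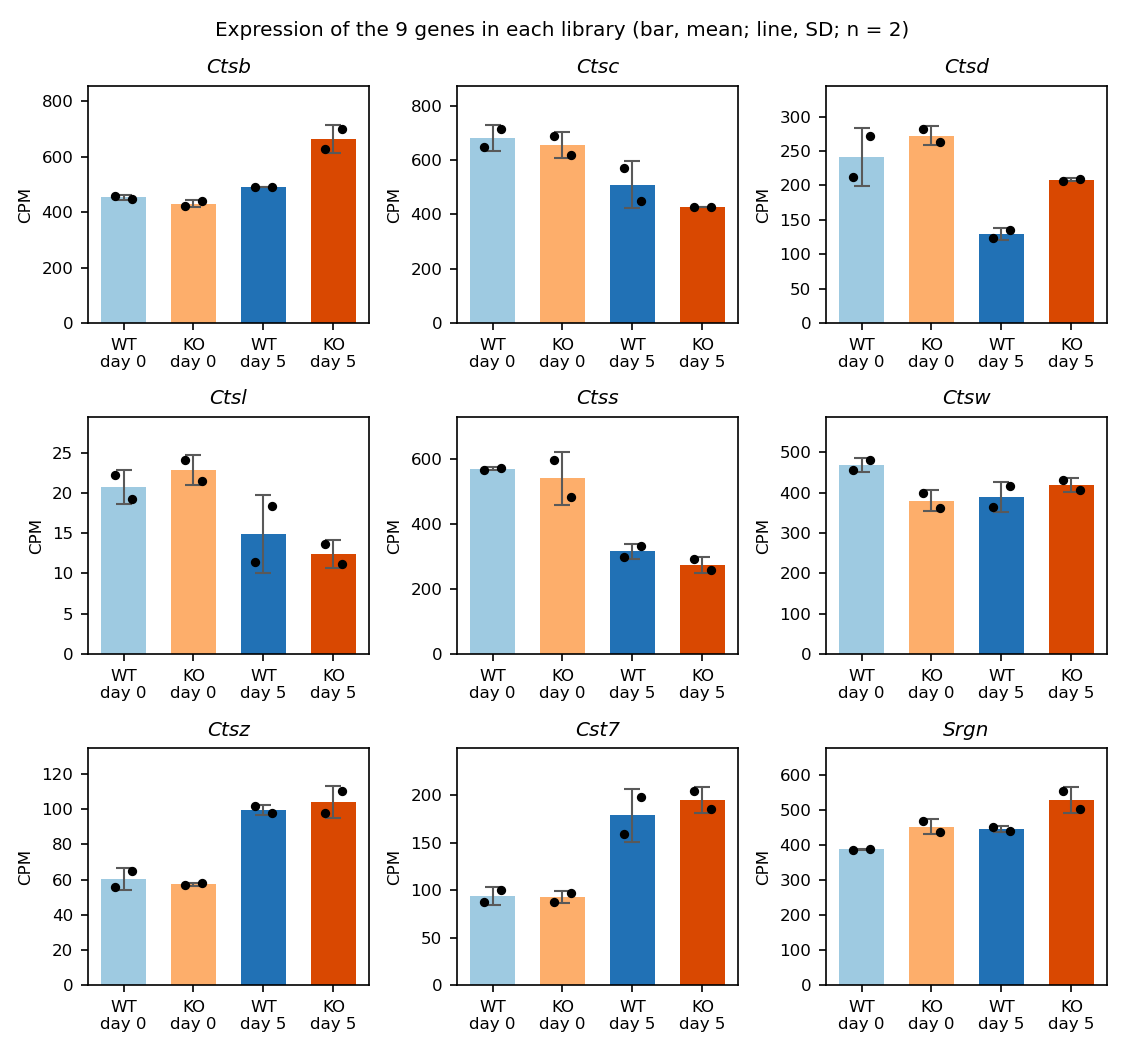
CPM (vertical axis, counts scaled to a common library size) of each of the 9 genes in the 4 groups, with bars for group means, lines for the SD and points for the 2 libraries. *Ctsz* and *Cst7* stood higher at day 5 in every library, *Ctss*, *Ctsc* and *Ctsl* lower, and *Ctsd* at day 5 stood near 130 CPM in WT and 208 CPM in KO-labelled libraries.

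*Ctsb* encodes cathepsin B, a lysosomal cysteine protease (chromosome 14, 63122462 to 63145923, GRCm38, plus strand). It had 459 and 447 CPM in WT and 422 and 439 CPM in KO-labelled libraries at day 0, and 490.3 and 492 CPM in WT and 628.5 and 701 CPM in KO-labelled libraries at day 5. The last pair stood above all other libraries, and the remaining 6 lay between 422 and 492 CPM. Over culture *Ctsb* rose in KO-labelled libraries by 0.63 on the log2 scale (SE 0.11, FDR 0.000473, edgeR), while in WT the difference was 0.12 (SE 0.11, FDR 0.413, 95% interval -0.12 to 0.36). Between genotypes at day 5 the log2 fold change was 0.44 (SE 0.11, unadjusted 95% interval 0.20 to 0.68), which missed the threshold in edgeR (FDR 0.0745) and passed it in DESeq2 (FDR 0.00989), and its FDR over all alternatives lay between 0.00989 and 0.604. Exons of *Ctsb* share 12.8% of their length with *Fdft1* on the other strand, and the strand setting of the counting was not stated, so reads of the 2 genes cannot be told apart there.

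*Ctsl*, cathepsin L, is an endopeptidase best known from thymic epithelium and antigen-presenting cells (chromosome 13, 64359337 to 64370890, minus strand). It was also the least abundant of the 9 per exon length. Its levels were 22.2 and 19.2 CPM in WT and 24.1 and 21.5 CPM in KO-labelled libraries at day 0, and 11.5 and 18.3 CPM in WT and 13.6 and 11.2 CPM in KO-labelled libraries at day 5. Every day 5 library lay below every day 0 library. The decrease was called in KO-labelled libraries (-0.88, SE 0.25, FDR 0.0106, edgeR) and not in WT (-0.50, SE 0.25, FDR 0.128, 95% interval -1.05 to 0.06). In KO-labelled libraries the call was lost without day 0 replicate 1 (FDR 0.0563) or day 5 replicate 2 (FDR 0.101), and in WT without day 5 replicate 2 the decrease was called (-0.82, FDR 0.0362, all edgeR). *Ctsl* shares 26.8% of its exon length with an antisense gene, *Gm47123*, which was not among the symbols counted.

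*Ctss*, cathepsin S, cleaves the invariant chain of MHC class II in antigen-presenting cells (chromosome 3, 95526786 to 95556403, plus strand). Its day 0 levels were 567 and 572.5 CPM in WT and 597 and 482 CPM in KO-labelled libraries. At day 5 they were 299.7 and 333 CPM in WT and 292 and 257.5 CPM in KO-labelled libraries, so the days did not overlap. *Ctss* fell by 0.85 in WT (SE 0.13, FDR 0.000206) and by 0.98 in KO-labelled libraries (SE 0.13, FDR 6.28e-05) on the log2 scale in edgeR, and kept both calls in all alternatives run. The 6 B-cell markers used summed to 146 to 182 CPM at day 0 and 75.1 to 88.7 CPM at day 5, nearly all of it *Cd79b* and *Cd74*. In every library *Cd79a* was at most 2.26 CPM, *Pax5* at most 1.13 CPM, and *Cd22* and *Ms4a1* under 1 CPM. The 6 dendritic cell markers summed to 11.4 to 16.7 CPM at day 0 and 5.64 to 7.47 CPM at day 5, with *Itgax* and *Clec9a* at 0 in all day 5 libraries. The part of either in the fall of *Ctss* was not tested. As the RNA came from bulk samples, fewer cells of a type and less RNA per cell cannot be told apart.

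*Ctsc* encodes cathepsin C, the granzyme activator (chromosome 7, 88278085 to 88310888, plus strand). Its day 0 levels were 649.5 and 716 CPM in WT and 690.2 and 621 CPM in KO-labelled libraries. At day 5 it stood at 571 and 448.5 CPM in WT and at 429 and 427 CPM in KO-labelled libraries, below every day 0 library. The fall was -0.62 in KO-labelled libraries (SE 0.13, FDR 0.00199) and -0.42 in WT (SE 0.13, FDR 0.0197, log2 scale, edgeR). The WT call was lost without day 0 replicate 1 (FDR 0.0502), day 0 replicate 2 (FDR 0.151) or day 5 replicate 2 (-0.22, FDR 0.165), and the WT libraries of day 5 were the pair that differed most.

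*Ctsz*, cathepsin Z, is a carboxypeptidase (chromosome 2, 174427493 to 174439039, minus strand). It had 56.0 and 64.9 CPM in WT and 56.7 and 57.8 CPM in KO-labelled libraries at day 0, and 102 and 97.8 CPM in WT and 97.7 and 111 CPM in KO-labelled libraries at day 5. It rose in WT by 0.73 (SE 0.15, FDR 0.00129) and in KO-labelled libraries by 0.86 (SE 0.14, FDR 0.0003) on the log2 scale in edgeR. At each day the genotypes overlapped, and the genotype interval at day 5 was -0.25 to 0.37 (95%, log2).

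*Ctsw*, cathepsin W or lymphopain, is expressed chiefly by CD8+ T cells and natural killer cells (chromosome 19, 5465043 to 5468507, minus strand). Its levels were 457 and 482 CPM in WT and 399 and 362 CPM in KO-labelled libraries at day 0, and 364 and 416 CPM in WT and 431 and 406 CPM in KO-labelled libraries at day 5. In the fit reported none of its comparisons passed the threshold in edgeR. The largest difference between 2 groups was at day 0, where both KO-labelled libraries lay below both WT libraries (-0.30, SE 0.12, FDR 0.275, 95% interval -0.56 to -0.04). Over culture the log2 fold change was -0.27 in WT (SE 0.12, FDR 0.0834) and 0.14 in KO-labelled libraries (SE 0.12, FDR 0.362). Scaling by library totals alone gave a called fall in WT (-0.40, FDR 0.0164, edgeR). An offset for the GC content and length of exons, added to TMM scaling, gave called falls in WT (-0.59, FDR 0.00327) and in KO-labelled libraries (-0.42, FDR 0.0212, edgeR).

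*Ctsd* encodes cathepsin D, the aspartic protease of the group (chromosome 7, 142375911 to 142388038, minus strand). It was the only one of the 9 called between genotypes at day 5, by edgeR. Its levels were 212 and 272 CPM in WT and 282.5 and 263 CPM in KO-labelled libraries at day 0. At day 5 they were 123.5 and 136 CPM in WT and 207 and 209.8 CPM in KO-labelled libraries. The genotypes overlapped at day 0 and were apart at day 5, each day 5 library lying below every day 0 library. At day 5 *Ctsd* was 1.61-fold higher in KO-labelled libraries (log2 0.69, SE 0.14, FDR 0.03, unadjusted 95% interval 0.38 to 0.99). It fell over culture by 0.90 in WT (SE 0.14, FDR 0.000199) and by 0.39 in KO-labelled libraries (SE 0.14, FDR 0.0317, both log2, edgeR).

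The day 5 genotype call of *Ctsd* was close to the threshold. Fitting the 4 day 5 libraries alone ended it (0.67, FDR 0.0503), as did an offset per library for the GC content and length of exons (0.52, FDR 0.151). It was also lost without WT replicate 1 (FDR 0.0955), WT replicate 2 (FDR 0.0714), KO replicate 1 (FDR 0.169) or KO replicate 2 (FDR 0.258) of that day, with log2 values of 0.52 to 0.75 and FDR of 0.000963 to 0.258 over all alternatives (edgeR, DESeq2). The fall of *Ctsd* in KO-labelled libraries was lost in DESeq2 (FDR 0.0609) and without day 0 replicate 1 (FDR 0.154), day 5 replicate 1 (FDR 0.158) or day 5 replicate 2 (FDR 0.133). *Ctsd* shares 34.4% of its exon length with *Gm49369* on its own strand, a symbol not among those counted. Of the 8 myeloid markers, *Lyz2*, *Adgre1*, *C1qa*, *Fcgr1* and *Cd14* were at 0 in both KO-labelled libraries at day 5. The list summed to 73.6 and 52.3 CPM there and to 34.9 and 41.9 CPM in WT, most of it *Cd68*, which encodes a lysosomal membrane protein, at 68.4 and 46.4 CPM against 30.7 and 37.1 CPM.

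*Cst7* encodes cystatin F, an inhibitor of cysteine cathepsins that is itself directed to lysosomes and granules (chromosome 2, 150570415 to 150578944, plus strand). It had 87.5 and 100.6 CPM in WT and 87.8 and 96.7 CPM in KO-labelled libraries at day 0, and 159 and 199 CPM in WT and 205 and 186 CPM in KO-labelled libraries at day 5. The days did not overlap, and the genotypes overlapped at both days. *Cst7* had the largest rise of the 9 over culture, 0.93 in WT (SE 0.15, FDR 0.000248) and 1.08 in KO-labelled libraries (SE 0.15, FDR 5.95e-05) on the log2 scale in edgeR, called in all alternatives run.

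*Srgn* encodes serglycin, the core protein on which granule contents are packed (chromosome 10, 62493833 to 62527451, minus strand). It had 387 and 389.8 CPM in WT and 468 and 439 CPM in KO-labelled libraries at day 0, and 453.5 and 441.5 CPM in WT and 556 and 503 CPM in KO-labelled libraries at day 5. At both days KO-labelled libraries lay above WT without overlap. The genotype differences were 0.22 at day 0 (SE 0.11, FDR 0.40, 95% interval -0.02 to 0.47) and 0.24 at day 5 (SE 0.11, FDR 0.353), and neither passed the threshold in edgeR. Over culture the log2 fold change was 0.20 in WT (FDR 0.152) and 0.22 in KO-labelled libraries (FDR 0.113). With the GC and length offset the culture values turned to -0.37 (FDR 0.0205) and -0.17 (FDR 0.247, edgeR), so no direction can be given for *Srgn* over culture.

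The same offset moved other culture values as well. With it *Ctss* fell by 1.45 in WT and 1.47 in KO-labelled libraries, *Ctsd* fell by 0.91 in KO-labelled libraries, and *Cst7* rose by 0.51 and 0.63, on the log2 scale. *Ctsz* rose by 0.44 in WT, and in KO-labelled libraries its 0.30 was no longer called (FDR 0.0983, edgeR). *Ctsw* fell under it in both, by 0.59 (FDR 0.00327) and 0.42 (FDR 0.0212). It called 8 of the 9 in WT, 2 higher and 6 lower, and 7 in KO-labelled libraries, 2 higher and 5 lower. Over all genes in WT, the offset called 6104, 2547 higher and 3557 lower, beside 6081 (48.3% of tested genes) without it. In KO-labelled libraries it called 6606, 2706 higher and 3900 lower, beside 6325 (50.2%) without it. Culture calls over all genes thus also leaned lower with the offset. The median of all tested genes was -0.20 and -0.24 with this offset and -0.17 and -0.23 with library totals alone, so small changes over culture are relative to that shift.

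**Figure D2:**
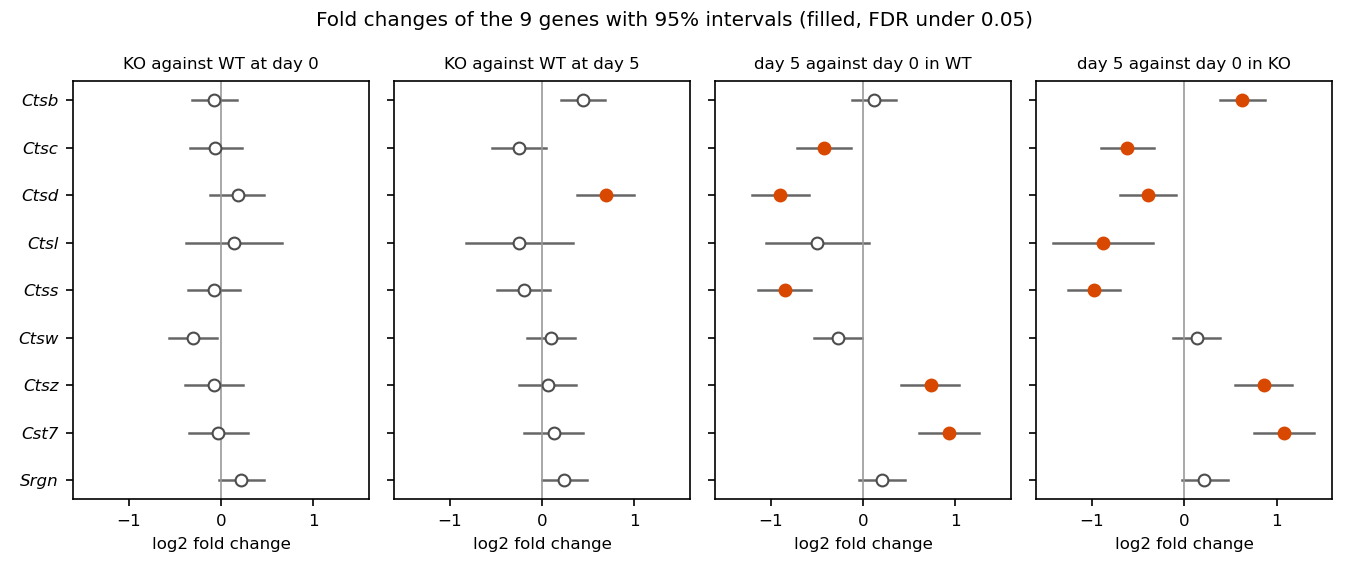
Log2 fold changes of the 9 genes (horizontal axis) in the 4 comparisons, with unadjusted 95% intervals as lines and filled points for FDR under 0.05. *Ctsd* is the only filled point between genotypes, at 0.69 on day 5, while 5 and 7 points are filled over culture in WT and in KO-labelled libraries.

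The genotype by day interaction, the difference at day 5 less that at day 0, asked whether the genotypes responded unequally to culture. It called 0 of the 9 in edgeR and in DESeq2, beside 0.159% of all tested genes, and 3 of the 9 had an unadjusted p under 0.05, beside 12.4%. These were *Ctsb* (0.51, SE 0.16, FDR 0.225), *Ctsd* (0.51, SE 0.20, FDR 0.326) and *Ctsw* (0.40, SE 0.17, FDR 0.356, all log2). A rise of *Ctsb* called in KO-labelled libraries and not in WT is therefore not shown to differ between them. The intervals of the other 6 included 0, the widest being that of *Ctsl*, from -1.16 to 0.39.

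Per kb of exon, the order of the genes shifted over culture. In WT at day 0 the order was *Ctss* with 419 CPM per kb, *Ctsw* with 249, *Srgn* with 177, *Ctsc* with 118, *Ctsd* with 103, *Cst7* with 95.4, *Ctsb* with 74.9, *Ctsz* with 41.9 and *Ctsl* with 3.19. *Ctsc* and *Ctsd*, and *Ctsd* and *Cst7*, overlapped between libraries, and the other neighbours did not. At day 0 in KO-labelled libraries, *Ctss* was again first at 398, and *Srgn* (207) overlapped *Ctsw* (202) and *Ctsd* (116) overlapped *Ctsc* (113). In WT at day 5, *Ctss* had 233 CPM per kb, *Ctsw* 207, *Srgn* 204 and *Cst7* 181, of which the last 3 overlapped from neighbour to neighbour. *Ctsd* was second to last there at 55.1. In KO-labelled libraries at day 5, *Srgn* was first with 241, ahead of *Ctsw* with 222, *Ctss* with 202 and *Cst7* with 198, the last pair overlapping. With the length of the longest transcript in place of all exons, *Srgn* came before *Ctsw* and *Ctss* in WT at day 5. Among 12201 genes with a length, *Ctsl* stood at percentiles 30.1 to 43.9 and *Ctss* at 97.5 to 99.3.

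**Figure D3:**
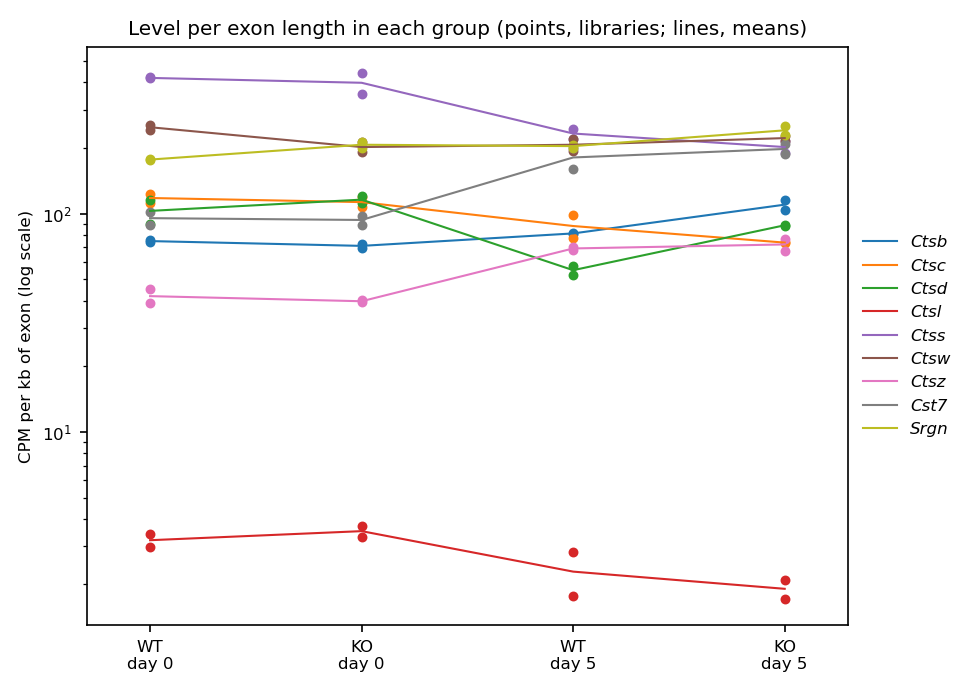
Level of each gene per kb of exon (vertical axis, log scale) in the 4 groups, with points for libraries and lines joining group means. *Ctss* falls from 419 to 233 in WT while *Cst7* rises from 95.4 to 181, and *Ctsl* stays below all others.

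The genes most like each member over the 8 libraries were found by the smallest root mean square difference of centred log2 CPM. *Ctsd* was nearest to *Slc44a2* (0.063) and to *Laptm5* (0.068), which encodes a lysosomal membrane protein. *Ctsb* was nearest to *Fermt3* (0.080) and *Prmt2* (0.086), *Srgn* to *Babam1* (0.058) and *Sash3* (0.064), and *Cst7* to *Pdxk* (0.072) and *Phka2* (0.096). *Ctsc* was nearest to *Mettl16* and *Celf1*, *Ctsl* to *Trpm7* and *Tnfaip3*, *Ctss* to *H2-T10* and *Vps37a*, *Ctsw* to *Mir703* and *Pigg*, and *Ctsz* to *Apool* and *Gemin2*, at differences of 0.054 to 0.093. Within the group, *Ctsz* and *Cst7* were each other's nearest (0.167), as were *Ctsb* and *Srgn* (0.171) and *Ctss* and *Ctsl* (0.200). *Ctsd* was the farthest from any other member, at 0.368 from *Ctsc*. *Srgn* and *Ctsw* varied little over the libraries (SD 0.18 and 0.14 on the log2 scale, beside 0.55 for *Cst7*). A small difference to another gene therefore says little about a shared pattern for these 2.

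The remaining cathepsins and their inhibitors were read as lists. Of 16 other cathepsins, 3 passed the filter, and all 3 were lower at day 5 in WT, with a median log2 fold change of -1.47, beside -0.04 over all tested genes. In KO-labelled libraries 2 of the 3 were called lower, with a median of -1.37, beside -0.05. Of all tested genes, 48.3% were called over culture in WT and 50.2% in KO-labelled libraries. In WT *Ctse*, an aspartic protease, fell from 57.4 to 13.9 CPM (log2 -2.06, SE 0.22) and *Ctso* from 153 to 55.3 CPM (-1.47, SE 0.19). Their log2 fold changes in KO-labelled libraries were -2.23 (SE 0.22) and -1.37 (SE 0.19). *Ctsa*, a carboxypeptidase that also protects other lysosomal enzymes, fell from 527 to 346 CPM in WT and had 462 to 481 CPM in KO-labelled libraries at day 5, against 460.1 and 463 at day 0. Of 10 cysteine protease inhibitors and legumain, 5 were tested, and in each genotype 4 rose and 1, legumain, fell over culture, with medians of 1.21 in WT and 1.28 in KO-labelled libraries. All 5 were thus called, beside 48.3% and 50.2% of all tested genes, *Ctla2b* and legumain having passed the filter through 1 day alone. Legumain had 12 to 44 counts per library at day 0 and 1 to 5 at day 5. It passed the filter because of day 0, so its fall was fixed by the filter. *Ctla2a*, whose product resembles a cathepsin propeptide, went from 7.51 and 8.37 CPM to 336.5 and 332 CPM in WT and from 6.35 and 7.16 CPM to 388 and 339 CPM in KO-labelled libraries. Its log2 fold changes were 5.40 (SE 0.17, FDR 1.28e-10) and 5.76 (SE 0.16, FDR 5.78e-11, edgeR). *Ctla2b* (3.62 and 4.72), a close copy of *Ctla2a* that rests on its unique reads, *Cst3* (0.67 and 1.28) and *Cstb* (1.21 and 0.85) also rose. *Ctla2b* had 7 to 15 counts per library at day 0 and passed the filter because of its day 5 libraries. The rise of *Ctla2b* was therefore fixed by the filter and should not be counted as support for a rise of the list. Between genotypes edgeR with the default filter called 0 of these 8 genes at either day, beside 1.80% of all tested genes at day 0 and 1.63% at day 5. Under an unadjusted p of 0.05 were 0 at day 0, beside 13.8%, and 3 at day 5, beside 14.1% (*Ctsa*, *Cst3* and *Cstb*, named after their values were seen). At day 5, 1 other cathepsin was called by DESeq2 and by edgeR on genes with at least 5 CPM in 2 libraries.

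Granule cargo, here the granzymes, perforin and *Nkg7*, rose over culture for the most part. Of 11 listed granzymes, perforin and *Nkg7*, 7 were tested, and 6 rose and 1 (*Prf1*) fell in WT, while 6 rose in KO-labelled libraries, beside 48.3% and 50.2% of all tested genes called in either direction. *Gzmb*, the main granzyme of activated CD8+ T cells, went from 3.22 and 3.84 CPM to 4807 and 4429 CPM in WT and from 1.80 and 1.65 CPM to 4602 and 3925 CPM in KO-labelled libraries. *Gzmk* had 0 counts in WT at day 0 and 25.6 and 34.2 CPM at day 5. Of the less abundant granzymes, *Gzmc* had at most 2 counts in any day 0 library and 12.1 and 12.3 CPM in KO-labelled libraries at day 5, and *Gzmm* had at most 3 counts in WT at day 0 and 16.9 and 7.23 CPM at day 5. The median log2 fold change of the cargo list was 4.31 in WT and 4.92 in KO-labelled libraries, with genes of at most 3 counts per library at day 0 set against that floor. *Gzmk*, *Gzmc* and *Gzmm* passed the filter on low counts because of their day 5 libraries. Their rise was therefore fixed by the filter, and they should not be counted as support for a rise of the list. At day 5, 3 of 7 were higher in KO-labelled libraries, beside 1.63% of all tested genes called, *Gzmk* (25.6 and 34.2 CPM against 134 and 103 CPM, log2 2.0), *Gzma* (326 and 145.5 CPM against 1005 and 675 CPM, log2 1.83) and *Prf1* (86.1 and 61.0 CPM against 137 and 121 CPM, log2 0.81, FDR 0.0489, edgeR). *Gzma* lost its call without KO day 5 replicate 1 (1.51, FDR 0.0739) and had 2.54 without WT day 5 replicate 1, and *Prf1* with the 4 day 5 libraries alone, with the offset, under a replicate block (FDR 0.0506) and without WT replicate 2 (FDR 0.204), KO replicate 1 (FDR 0.295) or KO replicate 2 (FDR 0.209) of day 5 (edgeR). The lowest FDR of *Prf1* was 0.000441. Some granzyme genes are near-identical in part. Reads aligned to more than 1 place were left out, so the counts of such genes rest on their unique reads.

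Of 10 genes of granule transport and release, 9 were tested, and 5 rose in WT and 4 in KO-labelled libraries over culture, with none called lower and medians of 0.62 and 0.33. *Stx11*, among those that rose, had at most 3 counts per library at day 0. It passed the filter because of its day 5 libraries, so its rise was fixed by the filter. The share called was 55.6% and 44.4%, near that of all tested genes. They included *Rab27a* (0.79 and 0.85), a GTPase that docks granules, and *Stxbp2* (0.62 and 1.17), which is needed for their fusion. *Sytl2*, which binds Rab27a, rose by 0.88 and 1.14, the WT call (FDR 0.0415) being lost with 6 of 16 alternatives (FDR up to 0.348) and the other without day 0 or day 5 replicate 1 of the KO-labelled libraries (FDR up to 0.096). *Lyst*, a regulator of lysosome traffic, rose in WT by 0.76 (FDR 0.00377), with 0.33 in KO-labelled libraries (FDR 0.131, edgeR). Between genotypes at day 5, 1 gene of this list was called, beside 1.63% of all tested genes. It was *Stxbp2* (282 and 272 CPM in WT, 418 and 418 CPM in KO-labelled libraries, log2 0.59, SE 0.12, FDR 0.0253, edgeR). That call was lost with the 4 day 5 libraries alone, with the offset and without WT replicate 2, KO replicate 1 or KO replicate 2 (FDR up to 0.257). Of 23 lysosome genes, 21 were tested, and 5 rose and 5 fell in WT, 6 rose and 5 fell in KO-labelled libraries. This share, 47.6% and 52.4%, was near that of all tested genes, and the median of the list was -0.03 and 0.11. *Asah1*, acid ceramidase, rose by 2.25 in WT and 1.65 in KO-labelled libraries, and *Gla*, alpha-galactosidase, by 1.53 and 2.06. *Lipa*, lysosomal acid lipase, fell by 1.33 and 1.21, all on the log2 scale and called in all alternatives run. *Tfe3*, a transcription factor of lysosomal genes, fell in WT by 1.32 (FDR 0.00786), a call lost without day 0 or day 5 replicate 2 (FDR up to 0.0602). *Mcoln1*, a lysosomal cation channel, fell from 18.2 to 7.67 CPM in KO-labelled libraries (FDR 0.00959), a call lost without day 0 replicate 2 or day 5 replicate 1 (FDR up to 0.0959, edgeR).

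Of the lysosome list, 9.52% were called between genotypes at day 5, beside 1.63% of all tested genes, and 4.76% at day 0, beside 1.80%. At day 5, *Psap* and *Laptm5* of this list were higher in KO-labelled libraries, as was *Ctsd*. *Psap* encodes prosaposin, the precursor of activators of sphingolipid breakdown, and had 644 and 553.5 CPM in WT and 1160 and 1085 CPM in KO-labelled libraries (log2 0.91, SE 0.12, FDR 0.00242, edgeR). It kept its call in all 16 alternatives. *Laptm5* had 546 and 538 CPM against 825 and 888 CPM (0.66, SE 0.11, FDR 0.0121), and lost its call with the offset and without KO replicate 1 or KO replicate 2 (FDR up to 0.169, edgeR). Over culture *Psap* fell in WT by 0.70 and had 0.16 in KO-labelled libraries (FDR 0.265), and *Laptm5* fell by 0.87 in WT and 0.42 in KO-labelled libraries (FDR 0.00651, edgeR). At day 0 the list held 1 call, *Npc2*, a cholesterol carrier of the lysosome, with 1556 and 1487 CPM in WT and 1033 and 1076 CPM in KO-labelled libraries (-0.53, SE 0.11, FDR 0.0318, lost with the offset or without any 1 of the 4 day 0 libraries, FDR up to 0.254, edgeR).

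Serglycin carries glycosaminoglycan chains, and 10 of 12 genes of their synthesis were tested. In WT 1 rose and 5 fell over culture, and in KO-labelled libraries 3 rose and 3 fell, with medians of -1.13 and -0.24 (genes at or under 3 counts in a group set against that floor). The share called was 60% in each genotype, beside 48.3% and 50.2% of all tested genes. *Xylt1*, among those that fell in KO-labelled libraries, had at most 4 counts in any day 5 library. It passed the filter because of its day 0 libraries. *Chst11*, among those that rose in KO-labelled libraries, had 4 to 9 counts per library at day 0 and passed because of day 5. The fall of *Xylt1* and the rise of *Chst11* were therefore fixed by the filter and should not be counted as support for a change of the list. *Chsy1*, a chondroitin synthase, rose by 2.40 (SE 0.19) and 1.73 (SE 0.18), and *Chst15*, which adds a sulfate to chondroitin, fell by 2.02 (SE 0.25) and 1.31 (SE 0.24) on the log2 scale. *Xylt2*, a xylosyltransferase that starts the chains, fell by 1.38 in WT and 1.19 in KO-labelled libraries, calls lost without day 5 replicate 1 of WT (FDR 0.0751) and, in KO-labelled libraries, without day 5 replicate 1 or at equal depth (FDR up to 0.135). *Csgalnact2*, which extends chondroitin, fell in WT by 1.6, a call lost without day 0 replicate 1 (FDR 0.0631, edgeR). *Chst12*, another chondroitin sulfotransferase, was higher at day 5 in KO-labelled libraries, with 68.1 and 56.4 CPM in WT and 143 and 144 CPM in KO-labelled libraries (1.2, SE 0.15, FDR 0.00213, edgeR, FDR up to 0.0301 over the alternatives).

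**Figure D4:**
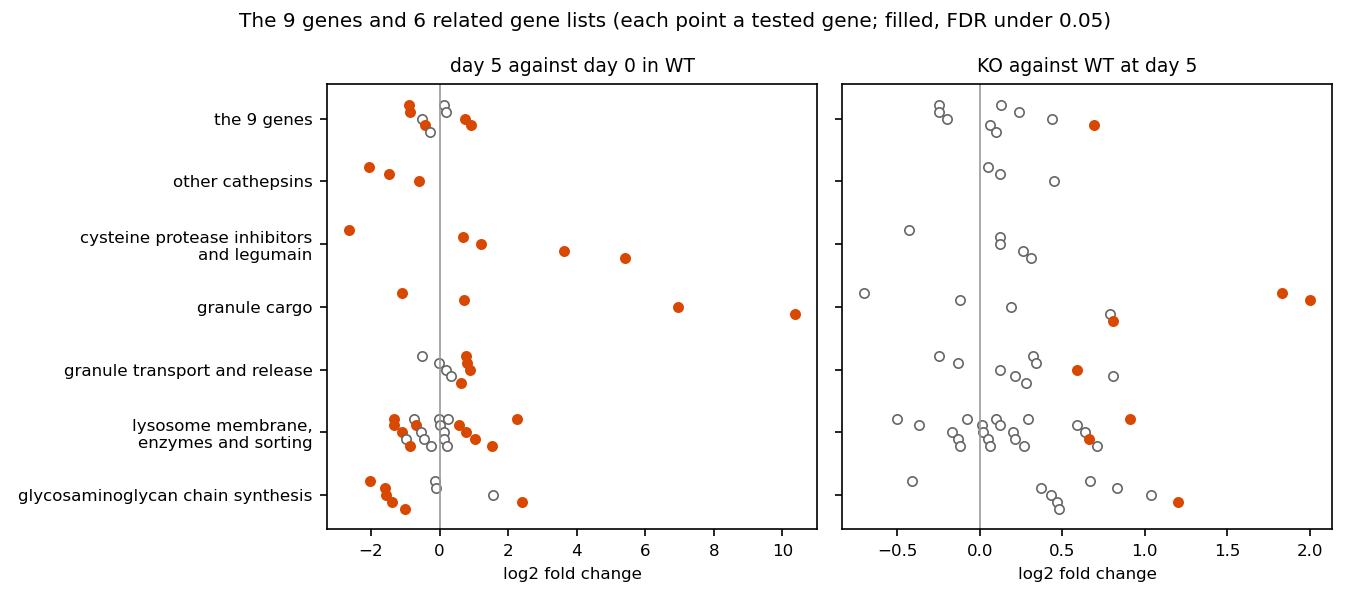
Log2 fold changes (horizontal axis) of the 9 genes and of the tested genes of 6 related lists, over culture in WT (left) and between genotypes at day 5 (right), with filled points for FDR under 0.05. *Gzmk*, *Gzmc*, *Gzmm*, *Stx11* and *Xylt1* on the left, and *Xylt1* on the right, are not drawn because 1 group had at most 3 counts per library. The 3 other cathepsins lie left of 0 in WT, and *Ctla2a* lies at 5.40 among the inhibitors.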

How the data were processed

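RNA-seq counts of splenic CD8+ T cells were read for 8 libraries in 4 groups of 2, grouped by the genotype and day in their titles. The authors deposited raw counts per gene symbol, unnormalized and unpooled. Per the submitters' processing notes, reads were aligned with HISAT2 2.1.0 and counted with HTSeq 0.11.1 on mm10 (GRCm38). The annotation and strand setting are not given in the sources used here. Lines of the counting program that name no gene (27.5% to 33.7% of records without a feature, 31.8% to 37.4% aligned to more than 1 place) were left out, so members of families with near-identical copies rest on their unique reads. With 4170126 to 11117971 counts per library and 2 libraries per group, an SD has 1 degree of freedom, and standard errors came from the model. Counts were not marked by molecule.

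All 8 libraries entered 1 quasi-likelihood fit in edgeR 4.0.16 (R 4.3.3, limma 3.58.1) with a mean per group, TMM factors and the default filter (minimum count 10). P-values were two-sided and adjusted (Benjamini-Hochberg, FDR) over 12597 genes, with calls under 0.05. The common biological coefficient of variation was 15.0%. CPM used TMM-scaled totals. Coordinates, exon lengths and overlaps came from GENCODE M21 (46394 symbols matched).

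The genes, lists and markers were chosen with earlier results of these data known, and the motifs after the sequences were seen. A B-cell marker of the list is not reported here. Named besides the 9 genes and *Satb1* were, per list and comparison, up to 4 called genes by the largest change with at least 10 CPM, and the 2 genes nearest in pattern to each of the 9. *Ctsa* in KO-labelled libraries, legumain, *Nkg7*, *Stx11*, *Xylt1*, *Chst11*, and *Psap* and *Laptm5* over culture were named after their values were seen. Alternatives were DESeq2 1.42.0, other size factors and filters, the 4 libraries of a comparison alone, replicate blocks, the edgeR 4 form of the test, a loess offset per library for exon GC content and length (span 0.3, available for 96.9% of tested genes), thinning to 4170126 counts, removal of genes with 50% or more of their exon bases opposite other exons, and leaving out each library.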

Additional observations from a re-analysis of the deposited data

Results flagged for a closer look

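The genotype by day interaction in edgeR called none of the 9 genes, but it called *Satb1* and *Chst12* among the genes read beside them, with 0.159% of all tested genes called. The *Satb1* difference between genotypes was lower at day 5 than at day 0 by 1.34 on the log2 scale (-1.34, SE 0.21, FDR 0.0269), being 0.51 at day 0 and -0.84 at day 5. The *Chst12* difference was higher at day 5 (interaction 1.26, SE 0.21, FDR 0.042), from 61.2 and 72.6 CPM in WT and 64.0 and 64.4 CPM in KO-labelled libraries at day 0 to 68.1 and 56.4 CPM and 143 and 144 CPM at day 5. Both calls were lost with the GC and length offset (FDR 0.102 for *Satb1* and 0.17 for *Chst12*). *Satb1* also lost it without any single library other than KO replicate 2 of day 0 and WT replicate 1 of day 5 (FDR up to 0.23), and *Chst12* without any single library other than WT replicate 1 of day 5 (FDR up to 0.294, edgeR with Benjamini-Hochberg adjustment).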

How the results depend on the processing

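For the 9 genes over 5 comparisons, 747 values were computed again under the alternatives. Of these, 698 kept their direction and their side of the threshold, 16 lost a call, 5 gained one and 28 changed sign, 2 of these 28 then being called (with the offset, *Srgn* in WT and *Ctsw* in KO-labelled libraries over culture). The number of the 9 called at day 5 between genotypes (1) became 0 with only the 4 libraries of the comparison, 0 with the GC and length offset, 2 with DESeq2 and 0 to 0 when single libraries were left out. Over culture it became 8 in WT with the offset (from 5), and it was 4 to 5 in WT and 5 to 7 in KO-labelled libraries without single libraries. No source says whether libraries with the same replicate number share an animal, and this was not tested. The correlation of their deviations from the group means was 0.118 between the days in WT, 0.228 in KO-labelled libraries and -0.0742 to 0.00438 for the other pairs of groups. With the replicate block *Ctsd* at day 5 had 0.69 (FDR 0.0326, edgeR), and no call among the 9 changed with the replicate block or with the replicate block within genotype.

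Over all genes, the calls at day 0 (227) became 434 without the filter, 342 with the replicate block within genotype and 38 to 200 without single libraries. At day 5 (205) they became 418, 318 and 32 to 185 in the same order, 338 with DESeq2 and 106 with the offset. For the interaction (20) they became 154, 55 and 0 to 41, 140 with DESeq2, 12 with the offset and 35 at equal depth. For culture they were 4630 to 5282 in WT and 4669 to 5821 in KO-labelled libraries without single libraries. Library totals alone turned the split of culture calls from 3112 higher and 2969 lower to 2668 and 3560 in WT, and from 3296 and 3029 to 2755 and 3936 in KO-labelled libraries. The offset gave 2547 and 3557 in WT and 2706 and 3900 in KO-labelled libraries, and DESeq2 went the other way with 2897 and 2254, and 3081 and 2260. Except where fewer libraries were fitted, the cause was not tested.

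The values that changed sign were log2 fold changes not called in the fit reported. At day 0 *Cst7* (-0.03) became 0.01 without the filter, 0.04 with the offset, 0.06 at equal depth and -0.13 to 0.07 without single libraries, *Ctsz* (-0.08) became 0.08 with the offset and -0.18 to 0.03 without single libraries, *Ctsc* (-0.06) became -0.14 to 0.05 and *Ctss* (-0.08) -0.25 to 0.10 without them. At day 5 *Ctsw* (0.10) became -0.01 and *Ctsz* (0.06) -0.06 with the offset, and without single libraries *Ctsz* became -0.03 to 0.15, *Cst7* (0.13) -0.02 to 0.30 and *Ctsl* (-0.25) -0.55 to 0.11. Over culture library totals gave -0.02 for *Ctsb* in WT (0.12) and -0.05 for *Ctsw* in KO-labelled libraries (0.14), and the offset gave -0.42 for that *Ctsw* value and -0.37 and -0.17 for *Srgn* (0.20 and 0.22). The interaction of *Srgn* (0.02) became -0.03 with library totals, 0 without the filter, -0.04 at equal depth and -0.08 to 0.09 without single libraries, that of *Ctsz* (0.14) -0.14 with the offset and that of *Ctss* (-0.13) -0.32 to 0.04 without single libraries. Depth limits *Ctsl* most, with 59 to 281 counts per library.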
